A study of Mus musculus with 10 samples.

Results

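Egr2, Egr1, Egr3, Fos, Fosb, Fosl2, Jun, Junb, Atf3 and Jdp2 are transcription factors of the Egr and AP-1 families. They were taken by name, and each was read by the 1 probe set whose only gene symbol was its own, which gave 10 genes of 19938 measured. The genes were followed in mouse bone marrow cultures on Affymetrix whole-transcript arrays. Marrow came from the long bones of male Swiss mice 4 to 6 weeks old, and all cultures were kept in αMEM with 10% fetal calf serum and 1,25(OH)2D3 (calcitriol, active vitamin D). Treated wells received recombinant mouse adiponectin, a fat-cell hormone, at 5 µg/ml, and control wells received vehicle. At each of 4, 10, 24, 72 and 120 h, 1 adiponectin array stood against 1 control array, 10 arrays in all. The series title speaks of lipopolysaccharide contamination. Lipopolysaccharide is a bacterial endotoxin that activates Toll-like receptor 4. No array here separates adiponectin from such contamination. Differences with adiponectin below are therefore between treated and control wells, and their source was not tested. The comparisons ask whether these factors differed with adiponectin and how they ran over the culture.

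Egr factors are zinc-finger proteins that bind GC-rich sites, and the Nab corepressors restrain them. AP-1 factors are basic leucine-zipper proteins that act as pairs, such as a Fos protein with a Jun protein. Many of these genes are immediate-early genes, which MAP kinase signals switch on quickly and briefly. In mice, Fos is required for osteoclasts to form, the cells that resorb bone. Jdp2 promotes their formation, and Egr1 favours the macrophage fate of myeloid progenitors.

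Promoter sequences are shown first for Egr2, the member that differed between the arms, and for Fosl2 and Jdp2, the members that climbed over the culture. The search covered 8 of the 10 genes, in 14 windows of the 250 bases before a transcript start from the RefSeq promoter table (GRCm38.p6). Egr3 had no entry in that table, and Egr1 was left out of the search, so the member counts below say nothing about either gene. All sequences run 5′ to 3′ on the + strand. Capitals mark TGACG, the first bases of the cAMP response element TGACGTCA bound by ATF and CREB factors, on either strand, and the CArG box, the site of serum response factor. Where a gene had several windows, the one with the most matches is printed.
Egr2, chr10:67537619-67537868: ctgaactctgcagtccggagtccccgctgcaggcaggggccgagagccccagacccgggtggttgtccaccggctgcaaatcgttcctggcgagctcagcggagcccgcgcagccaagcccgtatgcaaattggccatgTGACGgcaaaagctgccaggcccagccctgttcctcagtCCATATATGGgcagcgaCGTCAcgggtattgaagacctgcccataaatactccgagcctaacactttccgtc
Fosl2, chr5:32136222-32136471: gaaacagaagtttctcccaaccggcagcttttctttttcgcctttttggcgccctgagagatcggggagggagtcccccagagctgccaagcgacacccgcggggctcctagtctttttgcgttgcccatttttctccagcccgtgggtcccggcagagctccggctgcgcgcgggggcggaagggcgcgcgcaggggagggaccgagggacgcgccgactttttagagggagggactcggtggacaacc
Jdp2, chr12:85599166-85599415: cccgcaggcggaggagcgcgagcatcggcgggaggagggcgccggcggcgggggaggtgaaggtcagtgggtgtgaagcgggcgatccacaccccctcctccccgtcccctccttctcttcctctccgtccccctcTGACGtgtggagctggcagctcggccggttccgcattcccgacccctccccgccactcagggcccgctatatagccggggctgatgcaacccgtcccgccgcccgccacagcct
The Egr2 window held a CArG box starting 72 bases before the transcript start, between TGACG matches starting at 111 and 55 bases before it. The Jdp2 window held 1 TGACG, starting 114 bases before the start, and the Fosl2 window held no match to any motif searched. TGACG stood in 8 of the 14 windows, 3 of them overlapping windows of Egr2, and in 6 of the 8 genes. Of all 32851 windows of this length in the table, 17.8% held it, a share per window and not per gene. A CArG box stood in 4 of the 14 windows searched, all of Egr2 and 3 of them overlapping, against 1.47% of all windows. The full element TGACGTCA (1.55% of all windows), the AP-1 site TGACTCA (4.46%) and the Egr site GCGTGGGCG (0.536%) had 0 matches in the 14 windows. Both strands were searched, every TGACGTCA also counts as a TGACG, and a match is a description of letters only.

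Values are log2 expression as deposited, so a difference of 1 is a 2-fold change. Differences were tested with limma over all 19938 genes, and a gene was called at a Benjamini-Hochberg adjusted p under 0.05. At a single time each arm has 1 array, so there is no test there. The labels do not say whether cultures came from separate animals. With 1 array per arm and time, the p-values do not rest on a spread between like cultures. For the adiponectin effect and the test between times, they rest on how the paired difference varied from time to time. For slopes and changes with time, they rest on departures from the fitted line. In each case limma also draws on the spread of all genes. Array medians over all genes lay between 8.27 and 8.48. The median difference of all genes at 10 h was 0.07, and it moved to -0.07 with repeated quantile normalization and to -0.09 with arrays centred on their medians. Macrophage genes (Adgre1, Csf1r, Cd68, Mertk and C1qa) averaged 12.57 to 12.97 in adiponectin cultures and 12.54 to 12.86 in control cultures. All 6 neutrophil genes fell over time by limma (8.67% of all genes fell). Their mean was down to 10.09 at 120 h with adiponectin and 10.14 in control. The mean of 4 T and NK cell genes was 8.46 at 120 h with adiponectin and 7.23 in control, and their part in the members' values was not tested. In bulk RNA, fewer cells of a type and less RNA per cell cannot be told apart.

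Egr2 was lower in the adiponectin culture at every time, and it was the only member called for adiponectin. Egr2, also known as Krox20, is a zinc-finger activator best known from hindbrain and Schwann cell development. It read 10.39, 9.96, 9.36, 9.79 and 10.41 in adiponectin cultures at 4, 10, 24, 72 and 120 h, against 10.76, 10.49, 10.83, 10.41 and 11.02 in control cultures. The adiponectin values dipped to 24 h and came back by 120 h, while the control values moved up and down with no such dip. The arms did not overlap, but only just, with 10.4063 in the 120 h adiponectin culture and 10.4102 in the 72 h control. Such separation, all adiponectin values below all control values, was found in 0.296% of all genes.

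The paired differences of Egr2, adiponectin minus control, were -0.37, -0.53, -1.46, -0.62 and -0.61 at 4, 10, 24, 72 and 120 h. Their mean was -0.72 ± 0.43 (SD, n = 5 pairs; 95% interval -1.02 to -0.42), or 1.64-fold lower with adiponectin, with a limma adjusted p of 0.0165. At that threshold 1 of the 10 factors was lower and 0 were higher, against 0.371% and 2.05% of all genes. The members were chosen with earlier results of these data known. Other genes as low in adiponectin relative to control numbered 1324, 241, 7, 144 and 55 of 19938 at 4, 10, 24, 72 and 120 h. Egr2 was the only member past 2-fold at any time (1 of 10 lower at 24 h, and 0 at the other times or higher at any time). At least 2-fold lower with adiponectin were 0.12%, 0.13%, 0.226%, 0.155% and 0.0301% of all genes at the 5 times. At least 2-fold higher were 0.727%, 0.893%, 0.853%, 0.547% and 0.752%. Without the 24 h pair the mean difference was -0.53 (limma adjusted p = 0.0123), and the call held when any other pair was left out. The call was lost without the time block (0.271), with hours on a log2 scale as a straight line instead (0.132) and in an ordinary test without moderation (0.408).

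Over the culture Egr2 had no linear trend in log2 hours, with a slope of 0.00 per doubling of time (95% interval -0.12 to 0.12; limma adjusted p = 0.994). A test of any difference between times gave an adjusted p of 0.181, and 0.0161 when the 24 h pair was left out. The difference between arms changed by -0.05 per doubling (limma adjusted p = 0.834), so no trend in its size was detected.

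**Figure D1:**
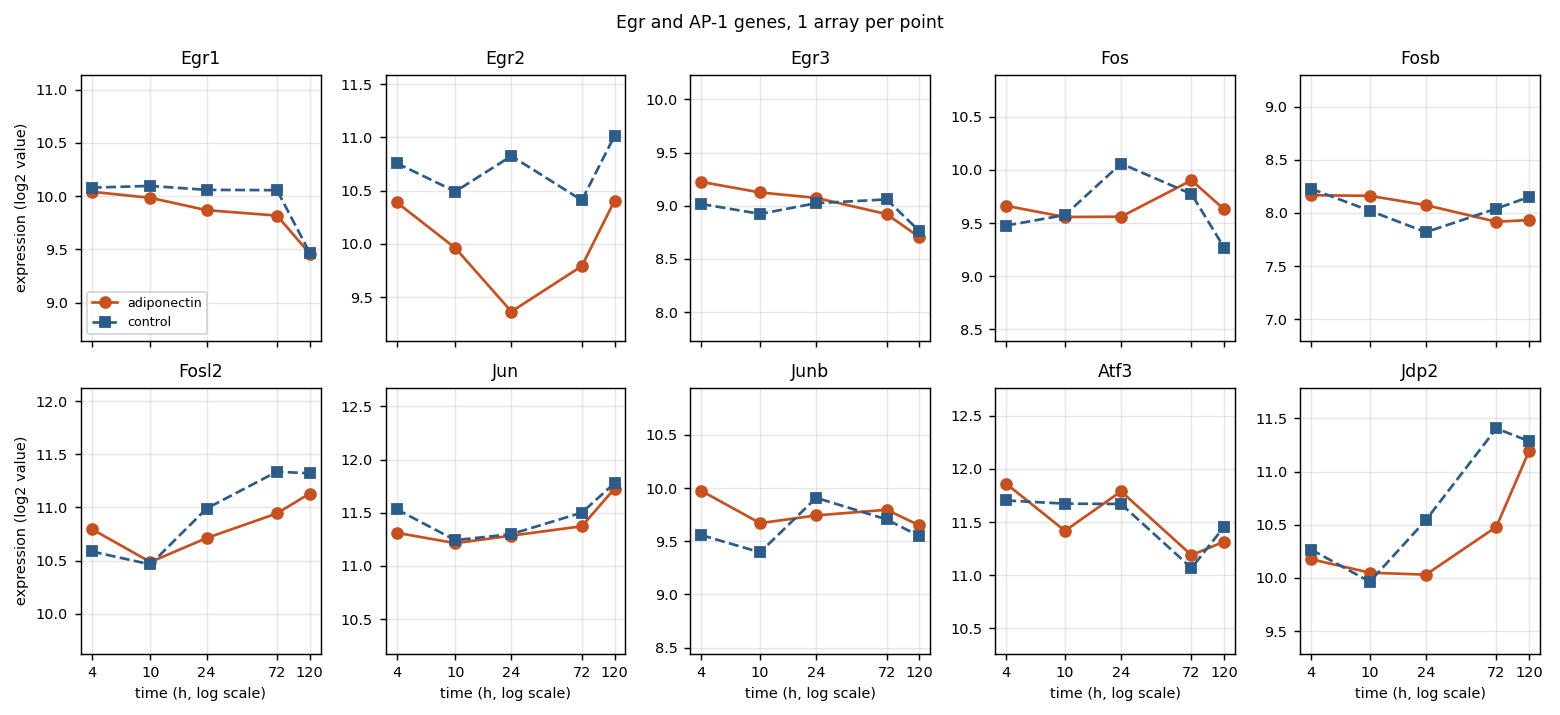
Expression (log2 value, vertical axis) of the 10 genes against hours in culture (log axis), 1 array per point, adiponectin in filled circles and control in squares; every panel spans the same log2 range. Egr2 is lower with adiponectin at all 5 times, at 9.36 against 10.83 at 24 h, and Jdp2 and Fosl2 are higher at 120 h than at 10 h in both arms.

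Egr1 declined over the culture. It read 10.04, 9.98, 9.87, 9.82 and 9.46 in adiponectin cultures from 4 to 120 h, against 10.08, 10.10, 10.06, 10.06 and 9.47 in control cultures. The control values were level to 72 h and then dropped, whereas the adiponectin values were lower at each successive time. The slope over both arms was -0.10 per doubling (95% interval -0.16 to -0.03; limma adjusted p = 0.0324). That call was lost without the 4 h pair (0.0553), the 10 h pair (0.0933) or the 120 h pair (0.617), and in a fit to the means of each time (0.152). Egr1 ran beside the mean of the neutrophil genes over the 10 arrays (Pearson r = 0.94, a description of arrays that share one time course). That mean read 13.11, 13.25, 13.02, 11.78 and 10.09 with adiponectin, against 13.42, 13.38, 13.20, 12.22 and 10.14 in control. The part of neutrophil loss in the Egr1 decline was not tested. Means of B cell (Cd79a, Cd79b, Ebf1), megakaryocyte (Pf4, Itga2b, Gp9) and erythroid (Klf1, Alas2) genes also fell in both arms. In control they went from 11.88 to 9.70, 12.15 to 9.77 and 10.05 to 7.55 between 4 and 120 h. Egr1 was not correlated with those means, so its likeness to neutrophil genes is not shown to be particular to them.

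Egr1 was lower with adiponectin in 5 of 5 pairs, but by only 0.01 to 0.24. The mean difference was -0.12 ± 0.10 (SD, n = 5 pairs; 95% interval -0.28 to 0.04; limma adjusted p = 0.698). In all, 3 of the 10 factors (Egr1, Egr2 and Jun) were lower in all 5 pairs, a pattern shown by 4.4% of all genes, and 0 were higher in all 5 (6.32% of all genes).

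Egr3, a related zinc-finger factor, read 9.22, 9.12, 9.07, 8.92 and 8.70 in adiponectin cultures, against 9.02, 8.92, 9.02, 9.06 and 8.76 in control cultures. Egr3 was above control at 4, 10 and 24 h and below it at 72 and 120 h, an order shown by 11.6% of all genes. The late minus early difference was -0.25 (limma adjusted p = 0.419), and the mean difference was 0.05 ± 0.15 (SD, n = 5 pairs; adjusted p = 0.914). Its slope of -0.06 per doubling missed the threshold (adjusted p = 0.0951), though it passed with repeated quantile normalization (0.0494), with centred arrays (0.0236) and in hours (0.0348). Egr1 and Egr3 ran together over the arrays (r = 0.80, n = 10), and neither ran with Egr2 (r = -0.07 for Egr1 and -0.32 for Egr3).

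Fos, the AP-1 subunit that osteoclasts need, differed most between arms at 24 h, where it was lower with adiponectin. It read 9.66, 9.56, 9.56, 9.90 and 9.63 in adiponectin cultures, against 9.48, 9.58, 10.06, 9.77 and 9.27 in control cultures. The control series peaked at 24 h and the adiponectin series at 72 h. The differences were 0.19, -0.02, -0.50, 0.13 and 0.36, with a mean of 0.03 ± 0.33 (SD, n = 5 pairs; 95% interval -0.22 to 0.28; limma adjusted p = 0.970). Fos had no called course (slope 0.01 per doubling, adjusted p = 0.921).

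Fosb, a second Fos-family subunit, lay between 7.92 and 8.17 in adiponectin cultures and between 7.82 and 8.23 in control cultures. Its mean difference was 0.00 in size with an SD of 0.19 over the 5 pairs (95% interval -0.19 to 0.19; limma adjusted p = 0.999). Fosb and Fos ran opposite ways over the 10 arrays (r = -0.78), the lowest correlation among the 45 pairs of members. Fosb spanned only 0.41 log2 units over these arrays and lay below all array medians over all genes (8.27 to 8.48). This correlation thus rests on small differences in a dim gene.

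Jun, the founding AP-1 partner of Fos, read 11.31, 11.21, 11.28, 11.37 and 11.73 in adiponectin cultures, against 11.53, 11.24, 11.30, 11.50 and 11.78 in control cultures. Both arms were lowest at 10 h and highest at 120 h. Jun was lower with adiponectin in 5 of 5 pairs by 0.01 to 0.22, with a mean of -0.09 ± 0.09 (SD, n = 5 pairs; limma adjusted p = 0.802). Times differed (adjusted p = 0.0464), a call lost when the 10, 24, 72 or 120 h pair was left out (0.0542 to 0.583), and the linear slope was 0.06 per doubling (adjusted p = 0.157; 0.0155 without the 4 h pair and 0.0124 in hours).

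Junb, a Jun-family protein that also restrains Jun, read 9.97, 9.67, 9.74, 9.80 and 9.65 in adiponectin cultures, against 9.56, 9.40, 9.91, 9.71 and 9.55 in control cultures. Junb was above control in 4 of 5 pairs, by 0.42 at 4 h, and below it at 24 h by 0.17. The mean difference was 0.14 ± 0.22 (SD, n = 5 pairs; 95% interval -0.06 to 0.34; limma adjusted p = 0.709).

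Atf3, a stress-induced factor that represses Toll-like receptor targets in mouse macrophages, had paired differences of either sign. It read 11.86, 11.42, 11.79, 11.19 and 11.32 in adiponectin cultures, against 11.70, 11.67, 11.67, 11.07 and 11.46 in control cultures. The mean difference was 0.00 ± 0.19 (SD, n = 5 pairs; 95% interval -0.19 to 0.19; limma adjusted p = 0.999). Atf3 fell over the culture, at -0.10 per doubling (limma adjusted p = 0.0481) with the lowest values at 72 h in both arms. That call was lost without the 4, 10, 72 or 120 h pair (adjusted p 0.0580 to 0.239), on the means of each time (0.164) and in hours (0.0751).

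**Figure D2:**
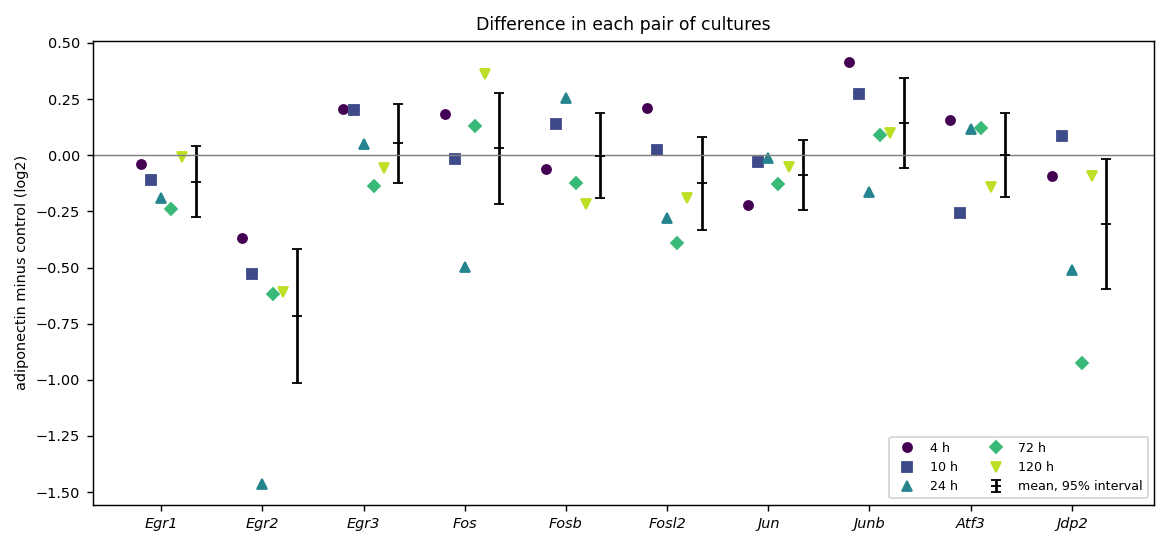
Adiponectin minus control (log2, vertical axis) for each of the 10 genes, 1 point per pair of cultures with the time given by symbol, and the mean with its 95% limma interval as a bar. The 5 Egr2 points lie between -1.46 and -0.37, and the Jdp2 points reach -0.93 at 72 h but lie near 0 at 4, 10 and 120 h.

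Jdp2 and Fosl2 were the members that climbed. Jdp2, a Jun dimerization protein that promotes osteoclast formation in mice, read 10.18, 10.05, 10.03, 10.48 and 11.19 in adiponectin cultures, against 10.27, 9.96, 10.54, 11.40 and 11.29 in control cultures. The control series was high by 72 h, whereas the adiponectin series was still low at 72 h and reached the control level at 120 h. The slope over both arms was 0.23 per doubling (95% interval 0.13 to 0.34; limma adjusted p = 0.00516), and times differed (adjusted p = 0.00577). The slope call was lost without the 120 h pair (0.130).

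Fosl2, also known as Fra-2, is a Fos-family subunit known in mice to limit osteoclast size. It read 10.80, 10.49, 10.71, 10.94 and 11.13 in adiponectin cultures, against 10.59, 10.46, 10.99, 11.34 and 11.32 in control cultures. Fosl2 was above control at 4 h and below it at 24, 72 and 120 h. Its slope was 0.14 per doubling (95% interval 0.07 to 0.21; limma adjusted p = 0.00940), a call lost without the 120 h pair (0.139) and on the means of each time (0.0557).

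Over both arms together, 2 of the 10 factors rose over time (9.81% of all genes rose) and 2 fell, Egr1 and Atf3 (8.67% of all genes fell). In a fit with a slope for each arm, Jdp2 had a slope of 0.18 per doubling with adiponectin (limma adjusted p = 0.154) and of 0.28 in control (0.0353). Fosl2 had a slope of 0.09 with adiponectin (0.275; 0.0483 without the 4 h pair) and of 0.19 in control (0.0236). Of the 10 members, 0 were called in the adiponectin arm, against 4.15% of all genes rising and 3.46% falling in that arm. At an unadjusted limma p under 0.05 there were 4 members in that arm, against 4091 of 19938 genes. In the control arm Jdp2 and Fosl2 were called rising and 0 members falling, against 4.64% and 4.45% of all genes. The control-arm calls were lost without the 72 or 120 h pair (adjusted p 0.142 and 0.205 for Fosl2, 0.164 and 0.187 for Jdp2) and, for Jdp2, without the 10 h pair (0.0950). The slopes of the arms were not shown to differ: the change of the difference per doubling was -0.09 for Jdp2 (limma adjusted p = 0.614) and -0.10 for Fosl2 (unadjusted p = 0.0387, adjusted p = 0.501). By any difference between times, 5 of 10 members were called (Jdp2, Egr1, Fosl2, Atf3 and Jun), against 14.4% of all genes. Without the 120 h pair the calls for Jdp2 (adjusted p = 0.0734), Egr1 (0.860) and Fosl2 (0.0951) were lost, and that for Fosl2 also without the 10 h pair (0.100). The Atf3 call was lost without the 4 or 72 h pair (0.0511 and 0.270) and with repeated quantile normalization (0.0595).

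The Jdp2 differences were -0.09, 0.09, -0.51, -0.93 and -0.09, with a mean of -0.31 ± 0.41 (SD, n = 5 pairs; 95% interval -0.60 to -0.02; limma adjusted p = 0.437). The share of all genes lower than Jdp2 on this difference was 29.8%, 52.7%, 3.25%, 0.221% and 37.4% at 4, 10, 24, 72 and 120 h. Without the 72 h pair the mean was -0.15. The Fosl2 differences were 0.21, 0.02, -0.28, -0.39 and -0.19, with a mean of -0.13 ± 0.24 (SD, n = 5 pairs; adjusted p = 0.785).

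Jdp2 and Fosl2 ran beside the osteoclast marker genes. The mean of Acp5, Ctsk, Calcr, Dcstamp and Mmp9 read 10.20, 10.23, 10.40, 11.00 and 11.99 in adiponectin cultures, against 10.12, 10.04, 10.59, 12.18 and 12.42 in control cultures. This mean was also lower with adiponectin at 72 h, and it was still lower at 120 h, where Jdp2 was close to control. All 5 markers rose over time by limma (9.81% of all genes rose), and 0 of 5 were called for the mean difference with adiponectin. At an unadjusted limma p under 0.05 was 1 of the 5, against 10.1% of all genes. The difference at 72 and 120 h minus that at 4 to 24 h was -0.78 for Acp5, -0.71 for Ctsk, -0.89 for Calcr, -1.17 for Dcstamp and -0.59 for Mmp9. On this measure 4 of the 5 had an unadjusted limma p under 0.05, against 2683 of 19938 genes. After adjustment 0 genes were called. Over the 10 arrays the marker mean correlated with Jdp2 at r = 0.97, with Fosl2 at 0.93 and with Jun at 0.81, as a description of arrays on one time course. With the neutrophil mean, Jdp2 was at -0.79, Fosl2 at -0.75 and Jun at -0.85. Egr3 ran with the neutrophil mean (r = 0.82), and Egr1 ran opposite to the osteoclast mean (r = -0.71). The part of osteoclast content in the Jdp2 and Fosl2 values was not tested. The mean of stromal genes (Col1a1, Col1a2, Cxcl12, Lepr and Pdgfra) also rose between 4 and 120 h. It went from 9.47 to 10.88 with adiponectin and from 9.74 to 10.67 in control, and the members were not correlated with it. Egr2 did not run with the osteoclast markers (r = 0.29) or with the neutrophil genes (r = -0.22).

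**Figure D3:**
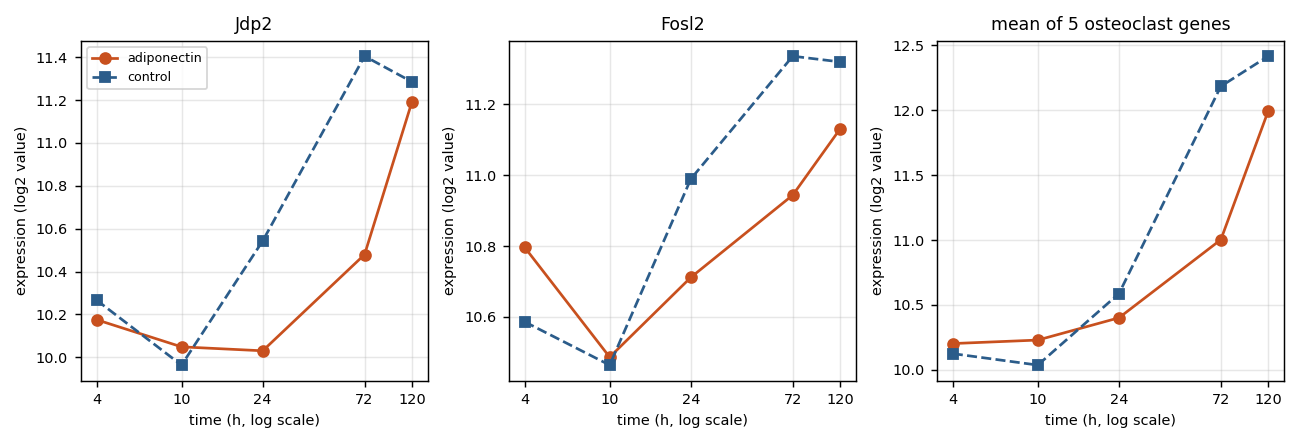
Log2 expression (vertical axes, each with its own range) of Jdp2, of Fosl2 and of the mean of 5 osteoclast genes against hours in culture (log axis), 1 array per point. At 72 h all 3 panels have adiponectin below control, at 10.48 against 11.40 for Jdp2, 10.94 against 11.34 for Fosl2 and 11.00 against 12.18 for the osteoclast genes.

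Across the 10 factors the count below control was 5, 5, 7, 7 and 8 at 4, 10, 24, 72 and 120 h, against 43.1%, 35.4%, 48.1%, 53.0% and 56.5% of all genes. With centred arrays the counts were 5, 8, 7, 7 and 5, so the run of counts moved with the scaling. The median of the members' mean differences was -0.05, against 0.01 over all genes. For the change of the difference with log2 hours, limma called 0 of the 10 members and 0 of 19938 genes. At an unadjusted p under 0.05 there were 1 member (Fosl2) and 1959 genes, 9.83% of all.

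The other AP-1, Maf and ATF factors (19 measured) held 1 rise and 0 falls, against 2.05% and 0.371% of all genes. Their median difference was 0.02. With p unadjusted, 5 of the 19 passed 0.05 by limma, against 10.1% of all genes. The rise was Batf2, an interferon-inducible basic leucine-zipper protein. Batf2 read 9.88, 9.80, 10.12, 9.73 and 9.92 in adiponectin cultures, against 8.50, 8.79, 8.77, 8.84 and 9.08 in control cultures. Every adiponectin value lay above every control value, a separation found upward in 1.53% of all genes. The mean difference was 1.10 ± 0.26 (SD, n = 5 pairs; limma adjusted p = 8.3e-05), opposite in sign to that of Egr2. Ddit3, the stress factor CHOP, differed by 0.35 ± 0.23 (adjusted p = 0.0951) and the small Maf protein gene Mafk by 0.30 ± 0.14 (0.0882), both above control in 5 of 5 pairs without passing the test. Over time 3 of these 19 rose and 3 fell, against 9.81% and 8.67% of all genes. Fosl1 (Fra-1), at 0.22 per doubling (limma adjusted p = 0.00117), and Maf, at 0.12 (0.00299), rose, and Creb1, at -0.10 (0.00542), fell. The calls for Maf and Creb1 were lost without the 120 h pair (0.0971 and 0.146).

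Egr4 and the Nab corepressors formed a further list, and 0 of these 3 were called for adiponectin. At an unadjusted limma p under 0.05 was 1 of the 3, against 10.1% of all genes. Nab1, a corepressor of Egr proteins, read 11.54, 11.28, 11.35, 11.16 and 11.26 in adiponectin cultures, against 11.18, 10.96, 11.10, 10.98 and 10.91 in control cultures. It was above control in 5 of 5 pairs by a mean of 0.29 ± 0.07 (SD, n = 5 pairs; limma adjusted p = 0.0625). It passed when dim genes were left out (0.0299) and with an intensity trend and robust prior (0.0223). Nab2 differed by -0.09 ± 0.25 and Egr4 by 0.09 ± 0.22, and neither passed (adjusted p = 0.877 and 0.850). None of the 3 had a called course: Nab2 had 0.05 per doubling (adjusted p = 0.463), Nab1 -0.05 (0.115) and Egr4 0.02 (0.681). The Nab1 course passed with centred arrays (0.0481), and the Nab2 course without the 4 h pair (0.0293).

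Of 20 other immediate-early genes, 1 rose with adiponectin and 0 fell, against 2.05% and 0.371% of all genes. Their median difference was 0.11. With p unadjusted, 9 of the 20 passed 0.05 by limma, against 10.1% of all genes. Nr4a3, an orphan nuclear receptor, read 8.76, 8.41, 8.59, 7.68 and 7.77 in adiponectin cultures, against 7.97, 7.83, 8.08, 7.32 and 7.70 in control cultures. Its difference narrowed to 0.07 at 120 h and averaged 0.46 ± 0.27 (SD, n = 5 pairs; limma adjusted p = 0.0348). The call was lost when the 4, 10, 24 or 72 h pair was left out (adjusted p 0.0607 to 0.151). Gadd45b (0.37 ± 0.27) and the serum- and glucocorticoid-induced kinase gene Sgk1 (0.30 ± 0.17) were above control in 5 of 5 pairs without passing (adjusted p = 0.111 and 0.114). Over the culture 2 of the 20 rose and 7 fell, against 9.81% and 8.67% of all genes. The steepest falls were the orphan receptor gene Nr4a1 at -0.28 per doubling (adjusted p = 0.000270), the antiproliferative gene Btg2 at -0.21 (0.000682) and Zfp36, which encodes an mRNA decay factor, at -0.20 (0.00109).

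Upstream of the members, 0 of 4 serum response factor and ternary complex factor genes were called for adiponectin. Of 15 MAP kinases and their kinases, 0 were called. At an unadjusted limma p under 0.05 were 1 of the 4 and 6 of the 15, against 10.1% of all genes. In the first list the differences were 0.17 ± 0.11 for Elk3, -0.08 ± 0.25 for Srf and 0.04 ± 0.12 for Elk4 (adjusted p 0.473 to 0.931). Map2k1, which encodes the ERK-activating kinase MEK1, was above control in 5 of 5 pairs by 0.30 ± 0.13 (adjusted p = 0.0786; 0.0437 with dim genes left out and 0.0412 with an intensity trend and robust prior). Mapkapk2, a kinase downstream of p38, differed by 0.24 ± 0.28, and Map2k6, which activates p38, by -0.24 ± 0.25 (adjusted p = 0.429 and 0.400). Over time 1 of 15 kinases rose and 5 fell, against 9.81% and 8.67% of all genes. The falls were led by the p38-delta gene Mapk13 at -0.35 per doubling (limma adjusted p = 9.2e-05), Mapkapk3 at -0.17 (0.000356) and Mapkapk2 at -0.13 (0.00748, and 0.0508 without the 72 h pair). Of the 4 serum response genes only Elk4 had a called course, at -0.07 per doubling (0.0329), and this was lost without the 4, 72 or 120 h pair, on the means of each time (0.117) and in hours (0.114). Srf at -0.08 (0.0726) missed the threshold but passed without the 24 h pair (0.0349) and in hours (0.0361), and Elk1 at 0.05 (0.180) missed it.

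Of the 11 listed MAP kinase phosphatases, which switch the kinases off, 1 rose and 1 fell with adiponectin. The shares of all genes were 2.05% and 0.371%. With p unadjusted, 3 of the 11 passed 0.05 by limma, against 10.1% of all genes. Dusp3, described further below, was not in this list. Dusp16, a phosphatase of JNK and p38, read 10.20, 9.41, 9.73, 9.78 and 9.43 in adiponectin cultures, against 9.29, 8.86, 9.34, 9.42 and 9.08 in control cultures. The difference was widest at 4 h and averaged 0.51 ± 0.24 (SD, n = 5 pairs; limma adjusted p = 0.0140). The call was lost without the 10 h pair (0.0575), without the time block (0.400), with a straight line in log2 hours (0.192) and without moderation (0.297). Dusp7, a phosphatase of ERK, read 11.22, 11.29, 11.40, 12.01 and 12.29 in adiponectin cultures, against 11.72, 11.66, 11.98, 12.36 and 12.46 in control cultures. Dusp7 was below control in 5 of 5 pairs by 0.39 ± 0.16 (SD, n = 5 pairs; adjusted p = 0.0255), a call lost without the 4, 10, 24 or 72 h pair (0.0727 to 0.121). Over time 4 of the 11 rose and 2 fell, against 9.81% and 8.67% of all genes. Among them were Dusp4 at 0.30 per doubling (limma adjusted p = 0.00171), Dusp10 at -0.27 (0.00275) and Dusp7 at 0.20 (0.000408). Without the 120 h pair the calls for Dusp4 (0.0605) and Dusp10 (0.0679) were lost, and that for Dusp10 also on the means of each time (0.0517).

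Of 15 genes known to carry AP-1 or Egr sites in macrophages or osteoclasts, 3 rose with adiponectin and 0 fell. The shares of all genes were 2.05% and 0.371%, and the median difference of the 15 was -0.09. With p unadjusted, 8 of the 15 passed 0.05 by limma, against 10.1% of all genes. The risers were the cytokine genes Il1b (1.10 ± 0.44, limma adjusted p = 0.00107) and Tnf (0.96 ± 0.60, adjusted p = 0.0144) and the chemokine gene Ccl2 (0.84 ± 0.47, adjusted p = 0.00936). All 3 were above control in 5 of 5 pairs. Over the culture 9 of these 15 rose and 3 fell, against 9.81% and 8.67% of all genes. Acp5, Ctsk, Calcr and Mmp9 are in this list and also among the osteoclast markers above, so these counts overlap. The steepest were the osteoclast genes Oscar at 0.81 per doubling (adjusted p = 0.000332), Ctsk at 0.77 (9.7e-05) and Calcr at 0.39 (0.00975; 0.254 without the 120 h pair and 0.0792 on the means of each time).

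**Figure D4:**
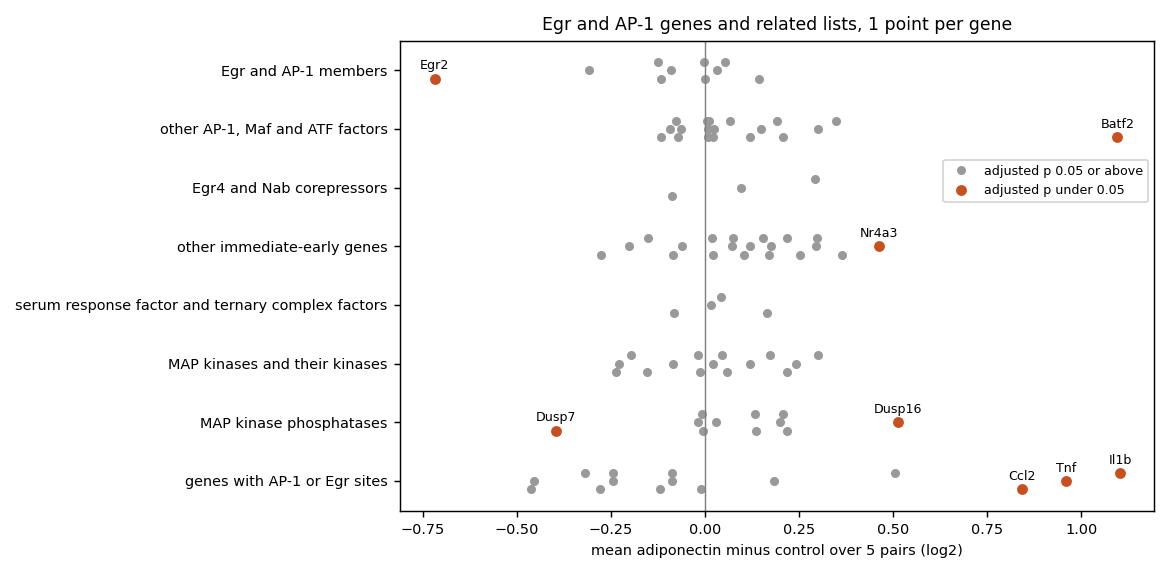
Mean adiponectin minus control over 5 pairs (log2, horizontal axis) for the 10 factors and for the genes of 7 related lists (rows), 1 point per gene, with genes at a limma adjusted p under 0.05 coloured and named. Egr2 at -0.72 and Dusp7 at -0.39 lie left of 0, and Batf2, Nr4a3, Dusp16, Ccl2, Tnf and Il1b lie between 0.46 and 1.10.

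Egr2 was the 1 member whose values spanned at least 1.5 log2 units over the 10 arrays, at 1.65. The 3 genes with the most similar pattern over those arrays were Dusp3, Tpcn1 and Coro1c, at Pearson r of 0.97, 0.95 and 0.94. Dusp3, a dual-specificity phosphatase, read 10.81, 10.61, 10.48, 10.59 and 10.90 in adiponectin cultures, against 11.10, 10.93, 10.99, 10.90 and 11.16 in control cultures. Its paired differences averaged -0.34 ± 0.09 (SD, n = 5 pairs). Those of Tpcn1, an endolysosomal cation channel gene, averaged -0.28 ± 0.15, and those of Coro1c, which encodes an actin-binding coronin, -0.18 ± 0.06. These 3 genes were chosen for their likeness to Egr2 on the same arrays, so their differences are a description, with no test. Among the members, the pairs most alike over the 10 arrays were Fosl2 with Jdp2 (r = 0.94), Jun with Jdp2 (0.82), Egr1 with Egr3 (0.80) and Fosl2 with Jun (0.70).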

How the data were processed

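RNA from 10 mouse marrow cultures was labelled with biotin and read on Affymetrix whole-transcript arrays, 1 array per culture. The deposited table holds log2 values made by the authors, 1 per probe set. RMA, Affymetrix Expression Console and Partek are named per the submitters' processing notes; the sources used here do not give their order, versions or build. RMA with quantile normalization removes most of a shift shared by all genes. Of 35556 probe sets, 21789 had 1 gene symbol, 1621 several and 12146 none. The probe set with the highest mean stood for a gene, giving 19938 genes; each member had 1. Signal over background is unknown here, and the number of arrays limits precision.

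Tests used limma 3.58.1 (lmFit and eBayes, two-sided) in R 4.3.3, with Benjamini-Hochberg adjustment over all genes. The adiponectin effect was fitted with time as a block (4 residual degrees of freedom), which pairs cultures by the time in the labels. Its change with log2 hours had 3, the slope over both arms 7, separate slopes 6 and the F test between times 4. Slope fits treat the 2 arrays of a time as independent. The tests were checked on simulated data. Members, gene lists and the naming rule were chosen with earlier results of these data known. The rule named all members, called genes of each related list or else its 3 largest differences, its 3 steepest slopes, and the 3 genes most like any member spanning 1.5 log2 units. Some genes of the related lists are not reported here. Alternatives covered scaling, dim genes, moderation, probe sets, the form of time and leaving out each pair.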

Additional observations from a re-analysis of the deposited data

Results flagged for a closer look

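Over 30 groups of 5 values (each member in the adiponectin arm, in the control arm and in its paired differences), 2 held a value far from the rest by Dixon's criterion, and chance alone marks about 1 group in 20. The 5 values of a group are different times, not replicates. Egr1 in the 120 h control culture, at 9.47, lay below the other 4 control values. The Egr2 difference between adiponectin and control at 24 h, at -1.46, lay below the other 4 differences, which ran from -0.62 to -0.37.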

How the results depend on the processing

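Among the genes higher with adiponectin, 408 as reported became 146 without the time block and 9 without moderation. Among the lower genes, 74 became 117 with an intensity trend and robust prior, 4 without the block, 30 with log2 hours and 0 without moderation. Leaving out 1 pair gave 292 to 379 higher and 21 to 62 lower genes. Genes whose difference changed with time numbered 0 as reported, 1 with centred arrays, 5 with the trend and robust prior, and 0 to 1 with a pair left out. Genes with a course numbered 3684, against 1959 on the means of each time and 1324 to 3857 with a pair left out. With adiponectin alone they numbered 1516, or 38 to 1772 with a pair left out. In control they numbered 1813, against 1003 when fitted alone and 22 to 2177 with a pair left out. Genes differing between times numbered 2867, or 1583 to 2807.

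Values that changed sign were all of uncalled results in the reported fit. The Atf3 difference became -0.012 with quantile normalization and -0.026 with centred arrays. With centred arrays the change of the difference with time became 0.024 for Egr1 and 0.020 for Atf3. Late minus early, it was 0.17 for Egr2 and -0.0018 for Jun. The course became -0.013 for Egr2 and -0.0047 for Fos with centred arrays, and -0.00074 for Fos in hours. With 1 pair left out, differences ran -0.051 to 0.16 (Fos), -0.065 to 0.052 (Fosb), -0.039 to 0.064 (Atf3) and -0.0039 to 0.074 (Elk4). Their changes with time ran -0.049 to 0.014 (Egr1), -0.11 to 0.052 (Egr2), -0.038 to 0.14 (Fos), -0.018 to 0.028 (Jun) and -0.044 to 0.038 (Atf3). Courses ran -0.11 to 0.10 (Egr2), -0.018 to 0.075 (Fos), -0.026 to 0.017 (Junb) and -0.0075 to 0.14 (Nab2). With adiponectin they ran -0.17 to 0.13 (Egr2), -0.0029 to 0.056 (Fos) and -0.056 to 0.0042 (Junb). In control they ran -0.055 to 0.074 (Egr2), -0.046 to 0.017 (Egr3), -0.084 to 0.094 (Fos) and -0.051 to 0.047 (Fosb). Where a call was lost, the cause was not tested, beyond the fewer arrays that leaving out a pair entails. Without the block the calls of Nr4a3, Dusp7, Dusp16, Il1b, Tnf and Ccl2 were lost (limma adjusted p 0.389 to 0.9998), and that of Batf2 held. With log2 hours those of Nr4a3, Dusp7, Dusp16, Il1b and Ccl2 were lost (0.0786 to 0.252), and those of Batf2 and Tnf held. Without moderation all 7 were lost (0.0991 to 0.428), and with the trend and robust prior that of Tnf (0.0926). Fosb dropped out with the dim genes, and so did the related genes Nr4a3, Egr4, Map2k6 and Calcr. Cultures are paired by time in the reported fit, so the fit without the block is its unpaired counterpart.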
